A study of Mus musculus with 8 samples.

Results

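Cholesterol and fatty acid synthesis was followed through 31 genes: 16 enzymes and carriers of the sterol branch, 10 enzymes of the fatty acid branch, and 5 regulators of both. Every non-control probe whose gene name was that of a member was taken, which gave 48 probes. Of these, 44 passed the filter on dim probes, which asks for a signal well above background on every array of either siRNA group, and all 31 members kept at least 1 probe, among 13577 genes tested in all. Each gene is represented by its brightest kept probe. For 30 members that probe was well above background on all 8 arrays, and for Mvd on 7.

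Both branches start from acetyl-CoA in the cytosol. The sterol branch condenses it to HMG-CoA, reduces that to mevalonate, builds isoprenoid units and squalene, and closes and trims the ring system to cholesterol. The fatty acid branch carboxylates acetyl-CoA to malonyl-CoA, builds palmitate, and then lengthens and desaturates it. Genes of both branches are known targets of the SREBP transcription factors, which leave the endoplasmic reticulum with their escort SCAP when membrane sterol is low and are held back there by the INSIG proteins. In muscle, malonyl-CoA made by the ACACB form of acetyl-CoA carboxylase is also known to restrain the entry of fatty acids into mitochondria.

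The cells were C2C12, a mouse myoblast line that fuses into myotubes in culture. One group received a control siRNA and the other an siRNA against macroH2A1.1, a splice form of a histone variant, and RNA of both groups was taken on day 4 of differentiation. Each group had 4 samples, numbered 1 to 4 in the labels, each on its own 1-colour Agilent array. The labels name biological replicates but not how the cultures were set up, and the p-values therefore cover only the spread between these 8 arrays, whose number limits the precision.

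All 3 probes of the targeted gene (H2afy in the files) were lower with macroH2A1.1 siRNA in 4 of 4 pairs of the same number, with mean differences of -1.41 to -0.98 (log2) and no overlap between groups. All 8 myotube markers were measured, and their summed level relative to the 75th percentile ran from 1130 to 1650 in control and from 1330 to 2020 with macroH2A1.1 siRNA. Of 8 adipocyte markers only Fabp4 and Pparg were measured, and the defining Adipoq, Plin1, Cidec, Lep, Retn and Cfd were not well above background. None of 3 hepatocyte markers was measured. The sums ran from 1120 to 1430 in control and 1000 to 1420 with macroH2A1.1 siRNA for 5 of 6 fibroblast markers, and from 26 to 29.3 and 23.3 to 31.6 for 5 of 6 macrophage markers. For 8 interferon response genes they ran from 3.75 to 7.7 and from 5.98 to 84.6. On the leading principal component over all genes, macroH2A1.1 siRNA replicate 2 scored 60 and the other 7 arrays between -27.3 and 7.8. The RNA came from whole cultures, so fewer cells of a type and less RNA per cell cannot be told apart.

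The levels below are log2 signals relative to the array's own 75th percentile, and differences are macroH2A1.1 siRNA minus control on the same scale. Adjusted p-values are from limma with Benjamini-Hochberg adjustment over all genes, with a threshold of 0.05. Without the replicate number as a block, 3 genes of 13577 passed (0.0221%). With it, 1125 passed (8.29%), of which 609 were higher (4.49%) and 516 lower (3.8%).

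No sterol member differed past the threshold between the siRNA groups, in either fit. The median difference of the 16 genes was 0.13 against 0.01 over all genes tested, with 11 above 0 and 5 below. At an unadjusted limma p under 0.05 there were 0 members without the block and 4 of 16 (25%) with it, where 12.3% and 28.9% of all genes were. The median depended on which arrays of replicate 2 were kept. It was -0.14 without the macroH2A1.1 siRNA array of replicate 2 and 0.26 without the control array of replicate 2. With both left out, in the fit with the block, it was 0.02. With the block, the 95% intervals of the 15 members other than Mvd lay between -0.89 and 0.50, and without the block between -1.40 and 1.14.

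The sterol members varied far more between replicate numbers than between siRNAs, and they did so together. Hmgcs1, which makes HMG-CoA, read 4.78, 5.69, 4.99 and 5.17 in control replicates 1 to 4 and 4.99, 6.02, 4.97 and 5.14 in the macroH2A1.1 siRNA replicates. Replicate 2 was the highest in both groups, and the groups overlapped. Idi1, which isomerises isopentenyl diphosphate, read 2.46, 3.74, 2.52 and 3.09 in control and 2.75, 4.22, 2.51 and 2.87 with macroH2A1.1 siRNA. Fdps, which makes farnesyl diphosphate, read 5.12, 6.34, 5.19 and 5.61 in control and 5.52, 6.84, 5.27 and 5.65 with macroH2A1.1 siRNA. In both genes replicate 2 was again the highest of each group, and the control array of replicate 2 lay above every macroH2A1.1 siRNA array of another number. The squalene epoxidase Sqle had the same order at the top, with 5.65 in control replicate 2 against 4.67 to 4.87 in the other controls, and 6.05 in macroH2A1.1 siRNA replicate 2 against 4.79 to 4.91.

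In 13 of the 16 sterol members replicate 2 was the highest array of both groups (81.2%), against 18.6% of all genes. The 3 exceptions were Ebp, Dhcr7 and Mvd, whose macroH2A1.1 siRNA replicate 2 spot was not found. Without Mvd the count was 13 of 15 (86.7%). A replicate mean of a member is the average of its control and macroH2A1.1 siRNA arrays of 1 number. These means spanned a median of 1.13 over the sterol members (1.06 without Mvd) and 0.38 over all genes. Leaving out replicate 2, the medians were 0.41 and 0.29. The size of the siRNA difference had a median of 0.16 over the sterol members and 0.12 over all genes. A span of 4 values is larger than a difference of 2 means where neither factor matters, which is why the values over all genes stand beside it. The replicate number took a median of 91.6% of a sterol member's sum of squares over the 8 arrays, against 66.7% for all genes, and the siRNA took 3.7% against 11.9%. In the authors' series values the median span was 1.0 over the sterol members and 0.29 over all genes, and the same count of 13 had replicate 2 on top in both groups.

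**Figure D1:**
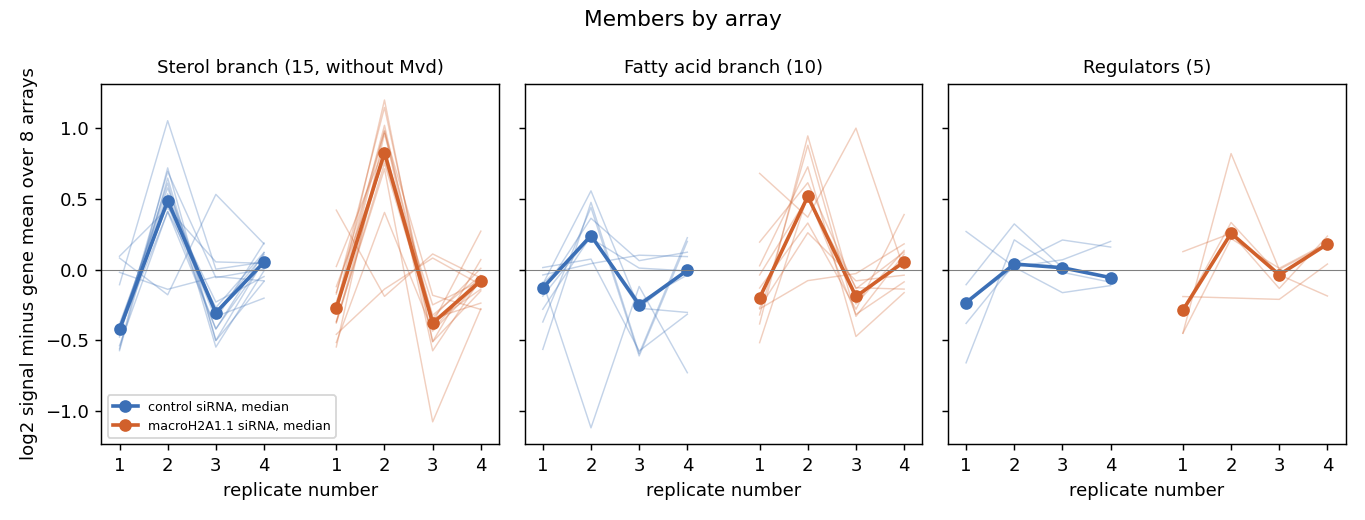
Log2 signal of each member minus its mean over the 8 arrays, by replicate number (x axis), for control siRNA (blue) and macroH2A1.1 siRNA (orange). Thin lines are single genes and thick lines with points their median, and Mvd is left out. The median of the sterol members peaks at replicate 2 in both groups, and the fatty acid members do so by less.

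Markers of other states moved with the replicate number too. Relative to each gene's own mean, the 4 measured markers of cycling myoblasts (Mki67, Top2a, Ccnb1 and Cdk1) had medians of 1.13 in control replicate 2 and 1.30 in macroH2A1.1 siRNA replicate 2, and of -1.03 and -1.09 in replicate 3. Pax7 and Myf5 were not well above background. The summed level of the list ran from 4.28 to 19.8 in control and from 4.17 to 22.8 with macroH2A1.1 siRNA. The median of the 8 myotube markers was lowest in replicate 2 of each group, at -0.49 and -0.15, although Ckm, Mylpf and Myh8 were lowest in another replicate of the macroH2A1.1 siRNA group. The sterol members' own medians were -0.42, 0.51, -0.29 and 0.06 in control and -0.27, 0.82, -0.37 and -0.07 with macroH2A1.1 siRNA, so replicate 2 was highest and replicates 1 and 3 lowest. The part of these markers in the sterol pattern was not tested.

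**Figure D2:**
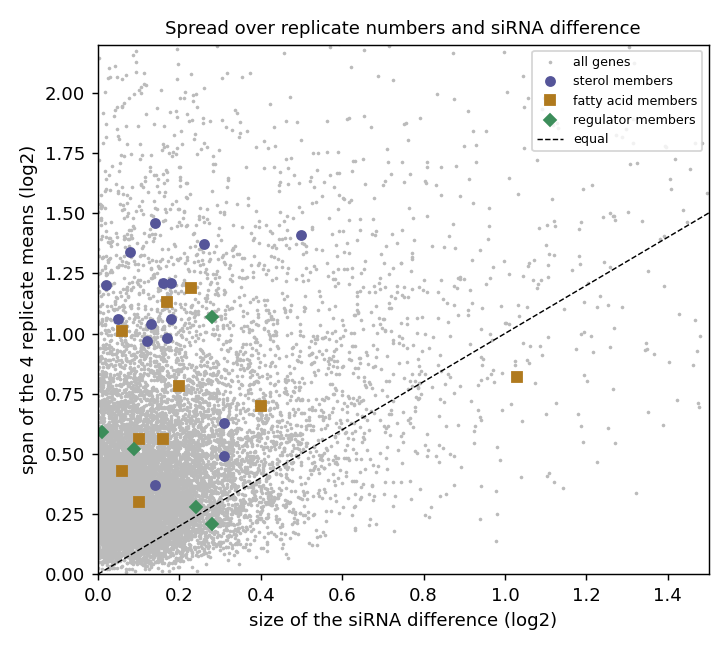
Span of the 4 replicate means (y axis, log2) against the size of the siRNA difference (x axis, log2), for the members other than Mvd (coloured) and all genes (grey; 267 of 13527 lie outside the axes). Most sterol members sit high and to the left, while Acacb and Scap lie below the dashed line of equal values.

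The members that act between HMG-CoA and squalene epoxide, Mvd apart, had small positive differences. Without macroH2A1.1 siRNA replicate 2 alone they lay between -0.24 (Idi1) and -0.07 (Mvk and Pmvk). That fit kept control replicate 2, the highest control array of each of these genes, without its pair. With the block, the differences stayed positive in 14 other settings, which include leaving out each pair, the lowest being 0.02 (Idi1). Mvk and Pmvk phosphorylate mevalonate, and their differences were 0.17 (SE 0.28) and 0.18 (SE 0.33). Fdft1 makes squalene, with a difference of 0.13 (SE 0.30). Sqle differed by 0.18 (SE 0.33), Idi1 by 0.14 (SE 0.42) and Hmgcs1 by 0.12 (SE 0.28). Of these enzymes Fdps was the one above control in 4 of 4 pairs, by 0.26 (SE 0.39; block SE 0.10, limma adjusted p = 0.163). Across all genes 21% were higher in 4 of 4 pairs.

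Tm7sf2, Hsd17b7 and Dhcr7, which act on the sterol ring, had the lowest values of the branch after Mvd. Tm7sf2, a sterol reductase, read 1.97, 3.13, 2.08 and 2.13 in control and 1.71, 2.79, 1.0 and 1.80 with macroH2A1.1 siRNA. It was lower in 4 of 4 pairs, as were 17.4% of all genes. The groups overlapped, since replicate 2 was high in both. The difference was -0.50 (SE 0.39; block SE 0.15, limma adjusted p = 0.101, and 0.0351 with normexp), and its second probe gave -0.52. The value was largest in pair 3 (-1.08). Hsd17b7, a sterol ketone reductase, read 0.80, 1.14, 0.76 and 0.75 in control and 0.19, 1.11, 0.27 and 0.62 with macroH2A1.1 siRNA, a difference of -0.31 (block SE 0.12, limma adjusted p = 0.153). It was lower in 4 of 4 pairs, but pair 2 differed by -0.03, and its second kept probe gave -0.13 with 2 pairs in each direction. Dhcr7, which makes cholesterol from its immediate precursor, read 1.61, 1.35, 2.06 and 1.71 in control and 1.07, 1.39, 1.61 and 1.42 with macroH2A1.1 siRNA. That was a difference of -0.31 (block SE 0.11, limma adjusted p = 0.133), with pair 2 at 0.04.

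Dhcr7 and Ebp did not follow the order of the other sterol members. Dhcr7 was highest in replicate 3 of both groups. Ebp, the sterol isomerase that acts before it, read 5.93, 5.81, 5.90 and 5.87 in control and 6.37, 5.76, 6.06 and 5.89 with macroH2A1.1 siRNA, with replicate 2 the lowest of each group. Its difference was 0.14 (SE 0.13). The other ring enzymes differed by 0.02 (Lss, lanosterol synthase), -0.08 (Cyp51, lanosterol demethylase) and 0.16 (Nsdhl, a sterol dehydrogenase), with SEs of 0.35 to 0.36, and all 3 peaked in replicate 2. Stard4, a carrier that moves cholesterol between membranes, differed by 0.05 (SE 0.31), and its second probe by -0.22.

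Mvd, the enzyme that decarboxylates mevalonate diphosphate, rested on a single spot. It read 1.24, 1.80, 1.78 and 1.60 in control and 1.36, -5.98, 1.44 and 1.78 with macroH2A1.1 siRNA. The low value came from a spot that the scanner software did not find (median signal 15.5 over a background of 20, against 560 to 821.5 for the other arrays). With it the difference was -1.95 (SE 1.61, limma adjusted p = 0.701). Without it the difference was -0.08 (SE 0.17, limma adjusted p = 0.922).

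The sequences before the start sites were compared because the sterol members moved together across samples. RefSeq promoters (GRCm38.p6) were at hand for 12 of the 16 sterol members, 7 of the 10 fatty acid members and all 5 regulators. Letters of 4 kinds were searched on both strands of the 250 bases before the start. A gene counted if any of its listed starts had them. The letters were TCACNCCAC (1 form of the sterol response element bound by SREBPs), CCAAT (the NF-Y box), GGGCGG (the GC box) and CANNTG (the E-box). Overlaps between motifs were allowed. The CCAAT letters stood before all 12 sterol members, 3 of 7 fatty acid members and 4 of 5 regulators, against 37.5% of 27025 genes with an entry and 40.1% of the 10479 that were also tested on the arrays. The 12 sterol members included Ebp and Dhcr7, which peaked in replicate 2 of neither group. Mvd, also among them, peaked in replicate 2 of control, and its macroH2A1.1 siRNA replicate 2 spot was not found. Fdps, Fdft1, Sqle and Stard4, which peaked in replicate 2 of both groups, had no entry. As all 12 had the CCAAT letters, these counts cannot compare members with and without them. The part of the letters in the replicate pattern was not tested. The GC box stood before 11 of 12 sterol members, 2 of 7 fatty acid members and 5 of 5 regulators, against 35.4% of all genes and 61.5% of tested ones. The E-box letters stood before 7 of 12, 4 of 7 and 4 of 5, against 69.3% and 62.1%. TCACNCCAC was found before Hmgcs1 alone of the members, against 1.22% of all genes and 1.18% of tested ones.

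Printed are the 200 bases before the start, 5' to 3' in the direction of the gene, for 3 sterol members that peaked in replicate 2 (Hmgcs1, chr13:119690151-119690350, plus strand; Idi1, chr13:8885406-8885605, plus strand; Nsdhl, chrX:72918321-72918520, plus strand), for Tm7sf2 (chr19:6067851-6068050, minus strand), which peaked there and was lower in 4 of 4 pairs, and for Acacb (chr5:114165318-114165517, plus strand), which did neither. Coordinates are of GRCm38.p6. Capitals mark TCACNCCAC, CCAAT and GGGCGG on either strand, so that ATTGG and CCGCCC are the reverse forms.
Hmgcs1: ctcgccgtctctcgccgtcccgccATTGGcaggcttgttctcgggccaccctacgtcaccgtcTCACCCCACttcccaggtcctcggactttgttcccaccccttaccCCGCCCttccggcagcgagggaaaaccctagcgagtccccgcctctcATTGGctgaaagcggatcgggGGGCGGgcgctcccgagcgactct
Idi1: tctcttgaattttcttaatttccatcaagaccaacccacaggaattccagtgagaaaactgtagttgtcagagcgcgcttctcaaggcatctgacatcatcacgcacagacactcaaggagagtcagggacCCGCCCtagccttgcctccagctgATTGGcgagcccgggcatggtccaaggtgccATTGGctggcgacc
Nsdhl: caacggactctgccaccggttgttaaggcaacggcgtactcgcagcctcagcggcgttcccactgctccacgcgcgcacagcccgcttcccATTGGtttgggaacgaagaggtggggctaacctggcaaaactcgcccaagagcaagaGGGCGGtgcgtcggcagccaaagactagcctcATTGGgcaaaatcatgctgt
Tm7sf2: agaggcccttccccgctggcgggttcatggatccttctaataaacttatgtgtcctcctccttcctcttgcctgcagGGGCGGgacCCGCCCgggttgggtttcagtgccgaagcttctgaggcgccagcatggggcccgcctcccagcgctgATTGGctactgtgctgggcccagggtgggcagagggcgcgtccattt
Acacb: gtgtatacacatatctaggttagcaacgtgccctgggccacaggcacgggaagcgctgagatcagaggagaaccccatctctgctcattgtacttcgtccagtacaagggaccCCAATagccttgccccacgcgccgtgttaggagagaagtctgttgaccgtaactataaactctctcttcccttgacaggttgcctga
In Hmgcs1 the response element TCACCCCAC began 137 bases before the start, with a reverse CCAAT on each side. Idi1 had reverse CCAAT letters at 45 and 14 bases and Nsdhl at 109 and 20 bases. Tm7sf2 had its CCAAT letters at 47 bases and 2 GC boxes in opposite directions at 123 and 114 bases. Acacb had CCAAT at 87 bases and no GC box in this window. A match is a description of letters, and a missing match says only that they are not in this window.

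**Figure D3:**
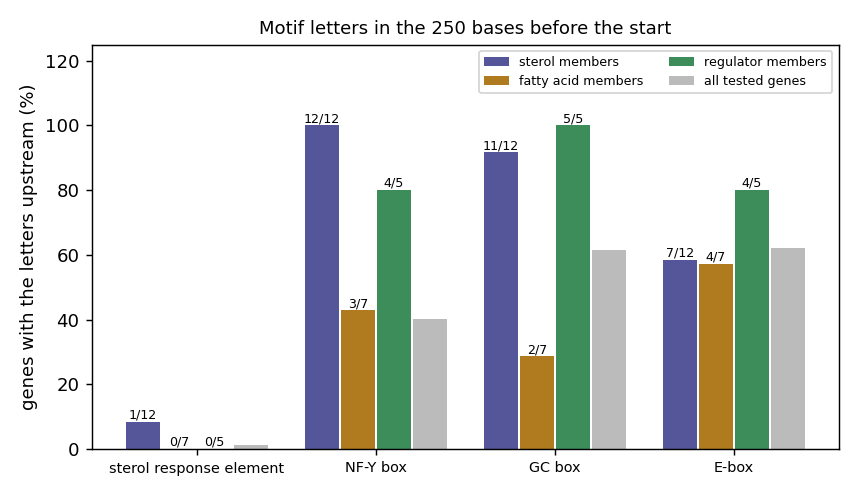
Share of genes (y axis, %) with each motif's letters in the 250 bases before a start, for sterol, fatty acid and regulator members and for all tested genes (grey). Fractions above the bars are members with the letters over members with a promoter entry. The NF-Y box bar is highest for the sterol members, at 12 of 12 against 40.1%.

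In the fatty acid branch 2 of 10 members passed the threshold with the replicate block, Acacb and Scd1, both higher with macroH2A1.1 siRNA (8.29% of all genes passed). Without the block 0 passed, and 1 of 10 had an unadjusted limma p under 0.05, against 12.3% of all genes. The median difference was 0.13 with 7 members above 0 and 3 below, and it was -0.07 without macroH2A1.1 siRNA replicate 2 and 0.02 without control replicate 3, against 0.26 without control replicate 2 and 0.25 without macroH2A1.1 siRNA replicate 3. Replicate 2 was the highest array of both groups in 7 of the 10 members, and the replicate means spanned a median of 0.74, or 0.40 without replicate 2.

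Acacb, the muscle form of acetyl-CoA carboxylase, was higher with macroH2A1.1 siRNA in every pair. It read -2.55, -3.58, -2.58 and -3.19 in control and -1.78, -2.09, -1.46 and -2.46 with macroH2A1.1 siRNA. Every macroH2A1.1 siRNA array lay above every control array, as was so for 4.62% of all genes. The difference was 1.03 (SE 0.29, limma adjusted p = 0.23; block SE 0.14, limma adjusted p = 0.0237), a 2.04-fold change, and the pairs differed by 0.78, 1.48, 1.12 and 0.72. The call was lost without pair 1, 2 or 3 (limma adjusted p between 0.0591 and 0.0939) and kept without pair 4 (0.0402). The size was smaller in other processing: it was 0.47 with normexp and 0.40 in the authors' series values. The probe lies at chr5:114700702-114700761 of mm9, plus strand. A second Acacb probe was above background on 0 of 8 arrays.

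Scd1, a desaturase that makes oleate and palmitoleate, read 5.12, 5.18, 4.53 and 4.79 in control and 5.30, 5.72, 4.97 and 5.23 with macroH2A1.1 siRNA. The groups overlapped, but each macroH2A1.1 siRNA array was above its control of the same number, by 0.18, 0.53, 0.44 and 0.44. The difference was 0.40 (SE 0.19, limma adjusted p = 0.462; block SE 0.08, limma adjusted p = 0.0415). The call was lost without any of the 4 pairs (limma adjusted p between 0.0816 and 0.138). Its paralog Scd2, whose probe lies 88 kb away on chromosome 19, read 6.82, 7.48, 6.65 and 6.62 in control and 6.95, 7.65, 6.45 and 6.76 with macroH2A1.1 siRNA, a difference of 0.06 (SE 0.28). A short probe can pick up RNA of a near-identical copy, and that was not tested.

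Markers of several kinds moved with Acacb and Scd1 in the same fit. Of 8 myotube markers 5 were higher past the threshold (median over the list 0.32), and of 8 interferon response genes 5 (median 2.47). Over all genes the share called higher in this fit was 4.49%. Both measured adipocyte markers were also higher: Pparg by 0.39 (limma adjusted p = 0.0255) and Fabp4 by 1.42 (limma adjusted p = 0.0295), each in 4 of 4 pairs. Fabp4 was well above background on only 2 of 4 control arrays. Of the called interferon genes, Usp18, Ifit1, Oasl1 and Cxcl10 were so on 1, 2, 1 and 3 control arrays. These genes passed the filter only through the macroH2A1.1 siRNA group, where they were higher, so their calls are not independent of it. The summed level of Fabp4 and Pparg ran from 2.42 to 3.93 in control and from 3.19 to 4.99 with macroH2A1.1 siRNA. Of the 5 measured fibroblast markers, 1 was lower past the threshold in this fit. It was Col1a2, with a difference of -0.40 (limma adjusted p = 0.0411), and 3.8% of all genes were called lower. None of the 4 measured cycling myoblast markers or the 5 measured macrophage markers was called. The part of these lists in the result was not tested.

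**Figure D4:**
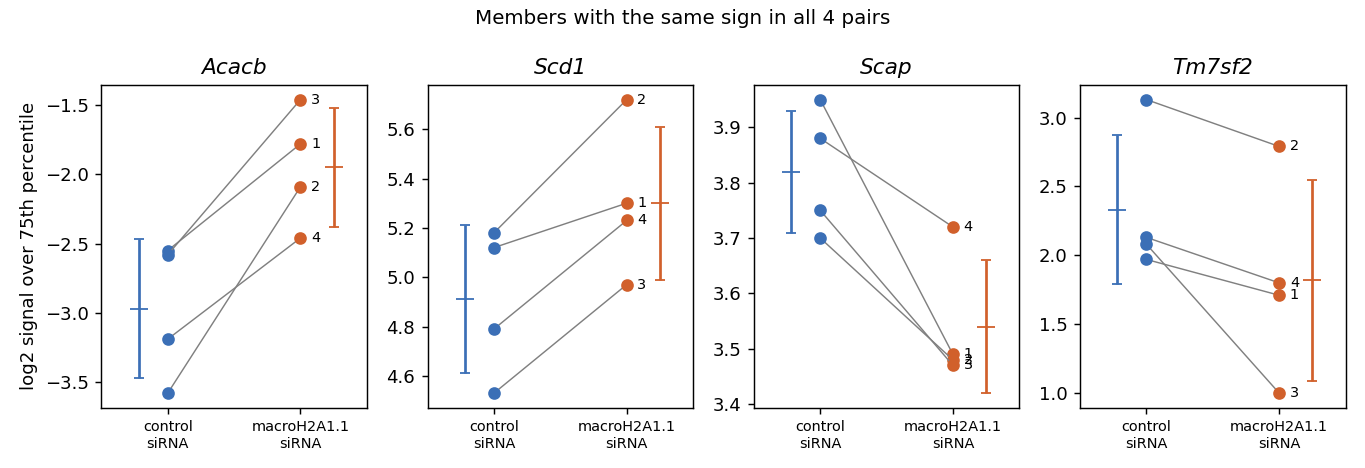
Log2 signal over the array's 75th percentile (y axis, not from 0) of 4 members in control siRNA (blue) and macroH2A1.1 siRNA (orange) samples. Grey lines join samples of the same replicate number, given at the right, and bars show the mean and SD of each group (n = 4). Acacb and Scd1 are higher and Scap and Tm7sf2 lower in all 4 pairs, and the groups are separate for Acacb alone.

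The main path of fatty acid synthesis showed no call. Acly, which makes cytosolic acetyl-CoA from citrate, differed by 0.10 (SE 0.17), and its second probe by -0.03. Acaca, the carboxylase form that feeds synthesis, differed by -0.06 (SE 0.13), with all 4 of its kept probes at or below -0.04. The probe at -0.04 was placed on chromosome 12 and the others on chromosome 11. The lowest, at -0.35, was well above background on 2 of 4 macroH2A1.1 siRNA arrays. Acaca read between 3.94 and 4.26 in control and between 3.77 and 4.30 with macroH2A1.1 siRNA. Fasn, fatty acid synthase, read -1.20, -0.68, -1.19 and -0.92 in control and -1.05, -0.59, -1.20 and -0.53 with macroH2A1.1 siRNA, a difference of 0.16 (SE 0.19). The muscle carboxylase Acacb was higher by 1.03 (block interval 0.67 to 1.38). The synthesis carboxylase and the synthase had block intervals of -0.21 to 0.09 and -0.05 to 0.36. Acacb was much dimmer than Acaca (control means of -2.97 and 4.07), and its difference was 0.47 with normexp and 0.40 in the authors' series values.

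The enzymes that lengthen and desaturate chains also gave no call apart from Scd1. Elovl6, which lengthens palmitate, differed by 0.23 (SE 0.35), and Elovl5, which lengthens polyunsaturated chains, by -0.10 (SE 0.11). The desaturases of polyunsaturated fatty acids Fads1 and Fads2, whose probes lie 133 kb apart on chromosome 19, differed by -0.20 (SE 0.22) and 0.17 (SE 0.33), and the second Fads2 probe by -0.03. Members of both branches also lie close to each other: the probes of Mvk and Acacb are 210 kb apart on chromosome 5, with differences of 0.17 and 1.03. Within the sterol branch, the probes of Pmvk and Fdps are 375 kb apart on chromosome 3, with differences of 0.18 and 0.26.

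**Figure D5:**
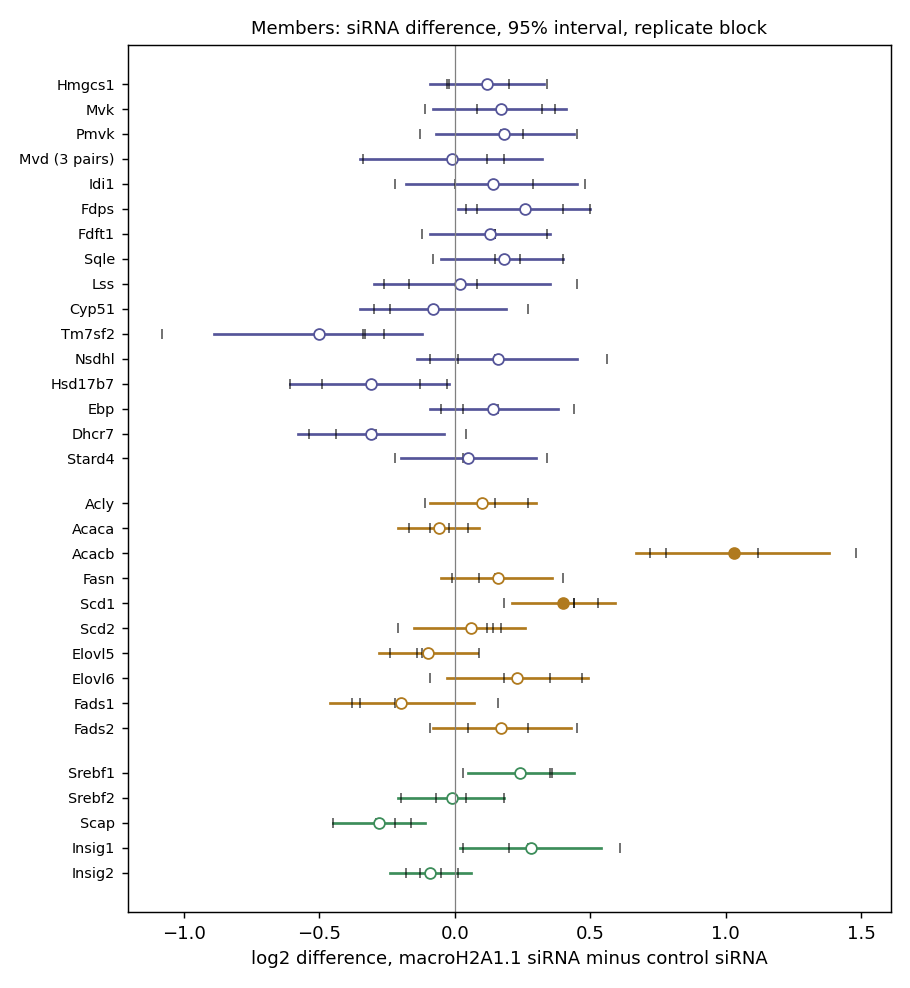
Log2 difference of each member, macroH2A1.1 siRNA minus control (x axis), by branch, with the 95% interval from the fit with the replicate block (line) and the 4 pair differences (ticks). Filled points passed the threshold in that fit, and Mvd is shown from 3 pairs, without the spot that was not found. Acacb (1.03) and Scd1 (0.40) are the filled points.

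Of the 5 regulators none passed the threshold in either fit, with 1 of 5 at an unadjusted limma p under 0.05 without the block and 3 of 5 with it (12.3% and 28.9% of all genes). Their median difference was -0.01, with 2 above 0 and 3 below. It was -0.14 without control replicate 1 and 0.14 without macroH2A1.1 siRNA replicate 1.

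Srebf1 encodes the SREBP form known for the fatty acid branch, and it read -0.75, -0.50, -0.68 and -0.63 in control and -0.39, -0.26, -0.65 and -0.28 with macroH2A1.1 siRNA. It was higher in 4 of 4 pairs, by 0.24 (SE 0.11; block SE 0.08, limma adjusted p = 0.108), with macroH2A1.1 siRNA replicate 3 inside the control range. Srebf2 encodes the form known for the sterol branch and differed by -0.01 (SE 0.19; block interval -0.21 to 0.18). It read 1.63 to 2.22 in control and 1.56 to 2.23 with macroH2A1.1 siRNA, lowest in replicate 1 of both groups.

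Scap, the escort protein, read 3.95, 3.70, 3.75 and 3.88 in control and 3.49, 3.48, 3.47 and 3.72 with macroH2A1.1 siRNA. It was lower in 4 of 4 pairs, with pair differences of -0.45, -0.22, -0.29 and -0.16, and the groups touched only where macroH2A1.1 siRNA replicate 4 exceeded control replicate 2. The difference was -0.28 (SE 0.10, limma adjusted p = 0.291; block SE 0.07, limma adjusted p = 0.0651). It passed the threshold with the block in 3 of 14 other settings, with normexp, the authors' series values and trended robust moderation, at sizes of -0.29, -0.26 and -0.28. Across all genes 17.4% were lower in 4 of 4 pairs.

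Insig1, which holds SCAP back and is itself a known SREBP target, read -1.18, -0.31, -0.54 and -0.61 in control and -0.97, 0.30, -0.52 and -0.34 with macroH2A1.1 siRNA. It was higher in 4 of 4 pairs, by 0.28 (SE 0.28; block SE 0.10, limma adjusted p = 0.156), and peaked in replicate 2 of both groups as the sterol enzymes did. Insig2 differed by -0.09 (SE 0.16), and its second probe by -0.10.

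Other genes of the 2 pathways came from a further list, of which 14 of 16 sterol genes and 23 of 27 fatty acid genes were measured. The 14 sterol genes included genes of synthesis, uptake, transport, efflux and SREBP processing, and none passed in either fit. At an unadjusted limma p under 0.05 there were 1 of 14 without the block and 3 of 14 with it, against 12.3% and 28.9% of all genes. Their median difference was -0.06, and 10 were below 0. Mylip, a ubiquitin ligase that limits cholesterol uptake, differed by -0.26 (block SE 0.06, limma adjusted p = 0.0616), lower in 4 of 4 pairs, and Mbtps1, a protease that releases SREBPs, by -0.08 (SE 0.09). Abca1 was not well above background.

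Of the 23 fatty acid genes, 3 were higher and 1 lower past the threshold with the block, against 4.49% and 3.8% of all genes. Without the block 0 passed, against 0.0221% of all genes. At an unadjusted limma p under 0.05 there were 4 of 23 without the block and 11 of 23 with it, against 12.3% and 28.9% of all genes. Elovl4, which makes very long chains, was higher by 0.54 (block SE 0.10, limma adjusted p = 0.041), and its second probe by 0.96. Scd3, another desaturase of the Scd1 family, was higher by 0.43 (block SE 0.07, limma adjusted p = 0.034), but its second probe differed by -0.04. Mid1ip1, a protein that promotes acetyl-CoA carboxylase assembly, was higher by 0.28 (block SE 0.06, limma adjusted p = 0.0499). Lpin1, a phosphatidate phosphatase of muscle, differed by -0.46 (block SE 0.05, limma adjusted p = 0.0178), lower in 4 of 4 pairs. Acss2, which makes acetyl-CoA from acetate, differed by 0.43 (block SE 0.13, limma adjusted p = 0.0986). The calls of Elovl4, Scd3 and Mid1ip1 were lost without any of the 4 pairs, and that of Lpin1 without pair 1, 2 or 3.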

How the data were processed

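RNA from 8 C2C12 cultures (4 per siRNA, day 4, 500 ng labelled with Cy3 per the labels' protocols) was measured on 1-colour arrays. The treated samples carry a knockout tag in 1 label field, but an siRNA in their titles and in the design, and were treated as siRNA samples. Per the file headers, Agilent Feature Extraction 10.7.3.1 produced the deposited spot intensity, already background-subtracted, with probes placed on mm9. The authors' series table holds log2 values of unstated scale: each deposited column followed the log2 signal of its own array (r from 0.9977 to 0.9996), and all share 1 median (6.29). How their background was handled is not given in the sources used here. They served as an alternative.

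Here each array's 75th percentile was subtracted from its log2 intensity. Spots flagged as outliers (143 to 236 on an array) were dropped, and repeated spots of a probe averaged. The share of spots well above background was 46.9% to 49.8%. Kept were 24987 of 55681 probes, those well above background throughout at least 1 group of 4 arrays, and a gene took its kept probe of highest mean. The test was limma's moderated comparison (version 3.58.1, R 4.3.3, two-sided) without a covariate, and again with the replicate number as a block. Scripts were tested on simulated data. Python 3.11.15, pandas 2.3.3 and matplotlib 3.10.9 were also used.

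Replicate numbers from the titles were taken as pairs, since deviations from the group mean correlated between arrays of the same number at 0.61, 0.552, 0.661 and 0.412, all above 0.1. Those arrays also lie side by side on the single slide, so position and culture cannot be told apart as the source of the pairing.

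The members and lists were chosen with earlier results of these data known. Named were all 31 members, genes of the further list past the threshold in either fit, and Mylip, Abca1, Acss2, Mbtps1 and Lpin1. From the further list 4 genes are not reported here. Alternatives were quantile normalization, normexp (offset 50), centring on the median, the series values, no filter, a filter on all 8 arrays, the mean of probes, single probes, the replicate block, a block for array row, trended robust moderation, and leaving out each array or pair. The block combined with the others, and lone spots not found set missing, were chosen after seeing the data. The series table had 0 columns of unmapped samples.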

Additional observations from a re-analysis of the deposited data

Results flagged for a closer look

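Among 62 groups of 4 arrays (31 members, both siRNAs), 7 held an array far from the other 3 by Dixon's criterion at the 95% level, where chance gives about 1 in 20. In 6 of the 7 that array was a replicate 2. In the macroH2A1.1 siRNA group, replicate 2 read 6.02 for Hmgcs1 (others 4.97 to 5.14), 6.05 for Sqle (4.79 to 4.91) and 5.07 for Acly (4.42 to 4.52), all high. For Mvd it read -5.98 (others 1.36 to 1.78), from the spot the scanner software did not find. In control, replicate 2 read 3.13 for Tm7sf2 (1.97 to 2.13) and 1.14 for Hsd17b7 (0.75 to 0.80). Scap read 3.72 in macroH2A1.1 siRNA replicate 4 (3.47 to 3.49).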

How the results depend on the processing

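Without the block, genes past the threshold numbered 3, and 1 with median centring, 1 with each probe alone, 9 with the array row as a block, 1125 with the replicate block, and 0 to 11 when 1 array was left out. Among fatty acid members the replicate block moved the count from 0 to 2, and among further pathway genes from 0 to 4. No sterol member or regulator passed in any setting without the block. Leaving out 1 array, the median ranged from -0.14 to 0.26 for sterol members, lowest without macroH2A1.1 siRNA replicate 2. The range was -0.07 to 0.26 for fatty acid members and -0.14 to 0.14 for regulators. Leaving out 1 pair, with the block, the ranges were 0.02 to 0.16, 0.06 to 0.14 and -0.08 to 0.05. No direction is claimed for any of the 3 groups. With the replicate block, genes past the threshold numbered 1125, and 1883 with normexp, 2099 with trended robust moderation, 0 with no filter, and 0 to 663 when 1 pair was left out. Sterol members past it were 0, and 1 with normexp (Tm7sf2). Fatty acid members were 2, and 1 with median centring or each probe alone, 0 with no filter, and 0 to 1 without a pair. Regulators were 0, and 1 (Scap) with normexp, the series values or trended robust moderation. Further pathway genes were 4, and 8 with normexp, 1 with median centring, 8 with the series values, 0 with no filter, 2 with the mean of probes, 2 with each probe alone, 11 with trended robust moderation, and 0 to 3 without a pair. Leaving out a pair leaves 6 arrays, and no filter adds genes to the adjustment. The part of either in these counts was not tested. Acacb, Scd1, Elovl4, Scd3, Mid1ip1 and Lpin1, the reported genes called with the block, kept their direction in every setting run. Acacb ranged from 0.40 (series values) to 1.20 (without macroH2A1.1 siRNA replicate 4).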
